A study of Mus musculus with 8 samples.

Results

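The Wnt pathway set examined here holds 42 mouse genes, and its members were taken as the array probes whose annotated gene symbol is one of the 42. They were sorted by role into ligands with the proteins that make them ready for secretion (8 genes), receptors and coreceptors (11), secreted inhibitors (6), intracellular core components (7), nuclear effectors (5), and feedback and membrane regulators (5). Of the 16449 gene symbols on the array, 38 were members, carried by 51 probes. Lrp5, Axin1, Nkd1 and Znrf3 had no probe under their names, so their expression was not analysed here. Probes were tested where their mean log2 value over the 8 arrays exceeded the median of all probes, and the brightest probe stood for a gene. By this filter on dim probes, 29 of the 38 were tested, and 9 (Wnt4, Wnt7b, Fzd4, Fzd6, Dkk1, Sfrp2, Dvl2, Tcf7 and Lef1) fell below it.

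The study compared 4 cultures of NS5 cells, an adherent mouse neural stem cell line, with 4 cultures of astrocytes made from the same line. For the astrocytes, NS5 cells were moved for 3 days into medium lacking growth factors and holding 5% fetal calf serum. The astrocyte cultures thus differ from NS5 in cell state, in growth factors and in serum at once, and these cannot be told apart. In such bulk RNA, fewer cells of a kind and less RNA per cell cannot be told apart. All 8 samples come from 1 line, and each was read on 1 single-colour Illumina bead array.

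In the Wnt pathway, secreted lipid-modified Wnt proteins bind Frizzled receptors at the cell surface. With the coreceptors Lrp5 and Lrp6 this stops a complex of Axin, Apc and Gsk3 from marking beta-catenin for destruction, and beta-catenin then joins TCF/LEF factors on target genes. Other Wnts, Wnt5a among them, act largely without beta-catenin, through cell polarity and calcium routes. In the nervous system the pathway is known for its part in the growth and fate of neural progenitors.

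Signals are given in scanner units after normalization and removal of a constant offset, and those called above background exceeded a limit set from the negative signals of the same array. Mean signals of the arrays ran from 469 to 648 scanner units, and 46.0% to 47.9% of probes on an array lay above the background limit, which was 35.4 to 39.8 units. Over the probes that stood for the tested genes, log2 values correlated at 0.993 to 0.995 within NS5, 0.984 to 0.994 within astrocytes and 0.848 to 0.859 between the groups. Gfap, the intermediate filament protein of astrocytes, was above the limit on all 4 astrocyte arrays and on no NS5 array, at least 16.7-fold higher (adjusted p = 4.87e-10). Ccnb1, a cyclin of mitosis, was above it on all 4 NS5 arrays and on none of the astrocyte arrays, a fall of at least 28.1-fold (adjusted p = 9.46e-13), and the 6 markers of dividing cells were all called lower in astrocytes. Of the astrocyte markers 5 of 6 tested were called higher and none lower. The neural stem cell markers were mixed, with Nes and Olig2 lower and Sox2 and Prom1 higher. Of 6 oligodendrocyte markers, 3 were tested and all 3 were called higher, with summed signals of 194 to 313 on NS5 and 1053 to 1694 on astrocyte arrays, although Sox10 and Mog were below the limit on every array. None of the 6 measured markers of microglia and macrophages was above the limit on any array. Of the other lists of foreign cells, neurons had 1 of 3 tested markers called (Map2, lower), and fibroblasts with pericytes and endothelium had 0 of 2 and 0 of 1 by limma, with none at an unadjusted p under 0.05 either. The part of any of these shifts in the Wnt results was not tested.

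Of the 29 tested members, 12 were called higher in astrocytes and 3 lower, at a limma adjusted p under 0.05. That is 51.7% of the tested members, while 59.2% of the 10377 genes tested across the array were called. Higher calls made up 41.4% of tested members against 29.2% of all genes, and lower calls 10.3% against 30.0%. The median log2 fold change of the tested members was 0.19, beside -0.018 for all tested genes. This small median was not stable, at 0.062 without Astrocyte replicate 1 and -0.036 with no filter on dim probes. In 14 of the 29 (48.3%) the 4 signals of one group lay entirely above those of the other, which held for 54.9% of all genes. A call with a fitted change of at least 2-fold was made for 9 of the 29 tested members and for 1924 of the 10377 genes (18.5%). Sfrp1 is among the 9 by its fitted value, while its bound was 1.75-fold. These counts leave out the 9 dim members, and 4 of the 15 called members (Fzd8, Fzd9, Sfrp1 and Wif1) passed the filter through the brighter group alone, so the counts describe the measured part of the set and support nothing about the pathway as a whole.

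**Figure D1:**
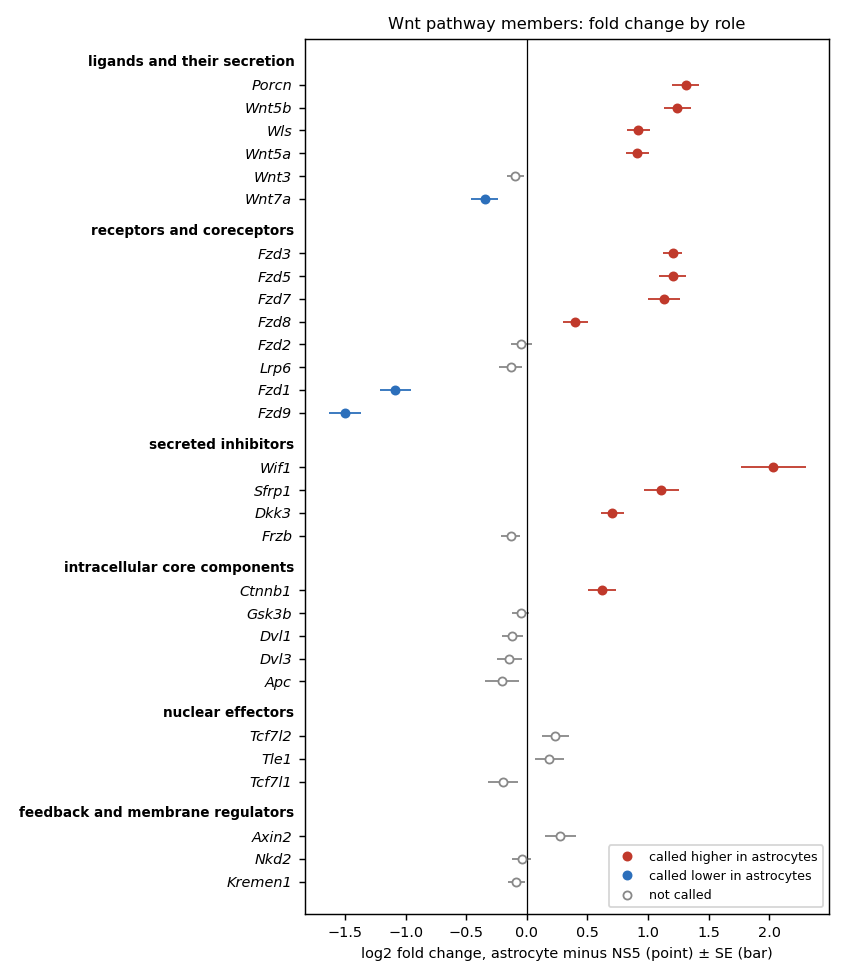
Log2 fold change (astrocyte minus NS5, horizontal axis) of the 29 tested members by role, with points for the estimate, bars for ± SE and colour for the call. Filled points are the 15 called genes, most of them ligands, receptors and inhibitors, and all nuclear effectors and feedback regulators are open; the points for Fzd8, Fzd9 and Sfrp1 are fitted values for genes with only a bound in one group.

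**Figure D2:**
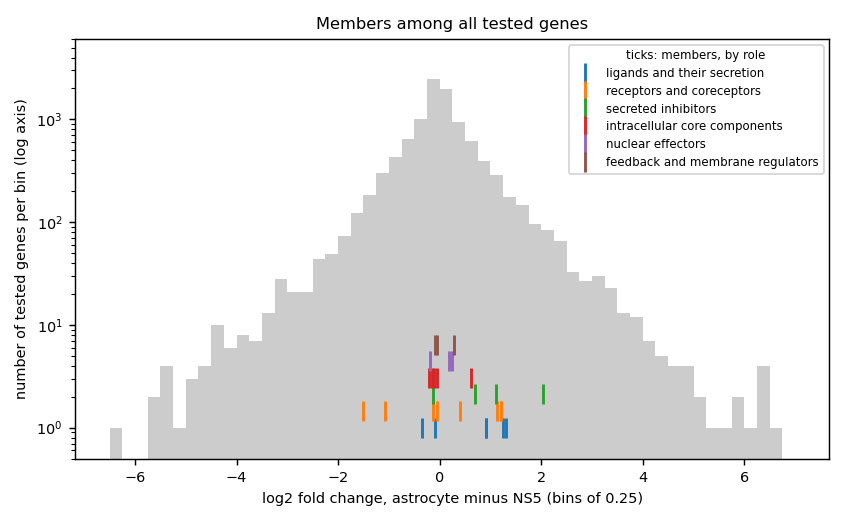
Number of tested genes per bin of log2 fold change (grey, log vertical axis), with 1 tick for each tested member, coloured by role, at heights that only separate the roles. The members lie between -1.50 and 2.03, within the range of the 10377 genes.

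Among the ligands and their secretion machinery, 4 of the 6 tested genes were called higher in astrocytes and 1 lower, with a median log2 fold change of 0.92. Of all tested genes, 29.2% were called higher and 30.0% lower, and a count over 6 genes supports nothing about the class. Wnt5a and Wnt5b rose together with Porcn, the acyltransferase that attaches the lipid to Wnt proteins, and Wls, the carrier that takes the lipid-bearing Wnts to the cell surface. Wnt5a, a ligand known mostly for signalling without beta-catenin, had signals of 227, 287, 219 and 240.3 on the 4 NS5 arrays and 459, 544, 584 and 593 on the 4 astrocyte arrays. Every astrocyte array was above every NS5 array, and the log2 fold change was 0.91 ± 0.092 (SE, with adjusted p = 2.22e-06), a 1.88-fold rise on the log2(signal + 99.01) scale used for all fold changes. A second Wnt5a probe was also called higher, by 0.39 on that log2 scale (adjusted p = 0.00117).

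Wnt5b, the close relative of Wnt5a, had signals of 82.8, 107, 107 and 80.7 on NS5 arrays and 334, 352, 291 and 469.9 on astrocyte arrays. The groups did not overlap, and its log2 fold change was 1.24 ± 0.11 (SE, with adjusted p = 6.89e-07). RefSeq lists 3 promoter windows for Wnt5b, and one of them holds a match to the core letters bound by TCF/LEF factors. Among the tested members that had a window, Wnt5b alone held such a match, and tested members without a window were not searched. The 250 bases of this window before the transcript start (GRCm38.p6, chr6:119449387-119449636, minus strand) are therefore shown. The capitals mark CTTTGAT, which begins 71 bases before the start:
Wnt5b: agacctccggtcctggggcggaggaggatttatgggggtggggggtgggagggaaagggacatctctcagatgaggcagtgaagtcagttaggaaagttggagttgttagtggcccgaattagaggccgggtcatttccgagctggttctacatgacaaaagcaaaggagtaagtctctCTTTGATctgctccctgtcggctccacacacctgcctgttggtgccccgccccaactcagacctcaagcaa
The letters searched were CTTTGAA and CTTTGAT on both strands. Of the 35 windows found for 27 of the 42 genes (Nkd1, which has no signal here, among them), 2 (5.71%) held a match, the other being that of Dkk1, whose signal lay below the filter, and 2457 of 32851 windows of all genes (7.48%) held one. A match is a string of letters and not a shown binding site.

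Porcn had signals of 64.7, 36.2, 39.6 and 47.9 on NS5 arrays, of which 3 were above the background limit, and 325, 289.7, 246 and 201 on astrocyte arrays. No astrocyte array came down to the NS5 range, and the log2 fold change was 1.31 ± 0.11 (SE, with adjusted p = 3.57e-07). Wls was above the limit on all 8 arrays, with 588, 604, 508 and 652 on NS5 and 1138, 1168, 1085 and 1415 on astrocyte arrays. All 4 astrocyte arrays were above all NS5 arrays, and the log2 fold change was 0.92 ± 0.096 (SE, with adjusted p = 2.91e-06).

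Wnt7a, a ligand of the developing forebrain that is known for acting on brain endothelium, went the other way. Its signals were 113, 189, 178 and 127 on NS5 arrays and 122, 78.9, 85.8 and 102 on astrocyte arrays. The groups overlapped, since 1 astrocyte array lay above 1 NS5 array, and the log2 fold change was -0.35 ± 0.11 (SE, with adjusted p = 0.0164). The call was lost without Astrocyte replicate 2 (-0.30, adjusted p = 0.0532), without NS5 replicate 2 (-0.28, adjusted p = 0.0589) and without NS5 replicate 3 (-0.30, adjusted p = 0.0554). Wnt3, a ligand known for signalling through beta-catenin, was close to background (34.4 to 55.6 on NS5 and 30.1 to 39.5 on astrocyte arrays) and was not called, at -0.094 ± 0.072 (SE, with adjusted p = 0.299). Wnt4 and Wnt7b were not above the background limit on any array.

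Because the added offset compresses dim signals, the size of these changes depends on it. With signals under 10 set to 10 in place of the offset, the log2 fold change was 1.93 for Wnt5b, 2.51 for Porcn and -0.63 for Wnt7a, each with the same call.

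**Figure D3:**
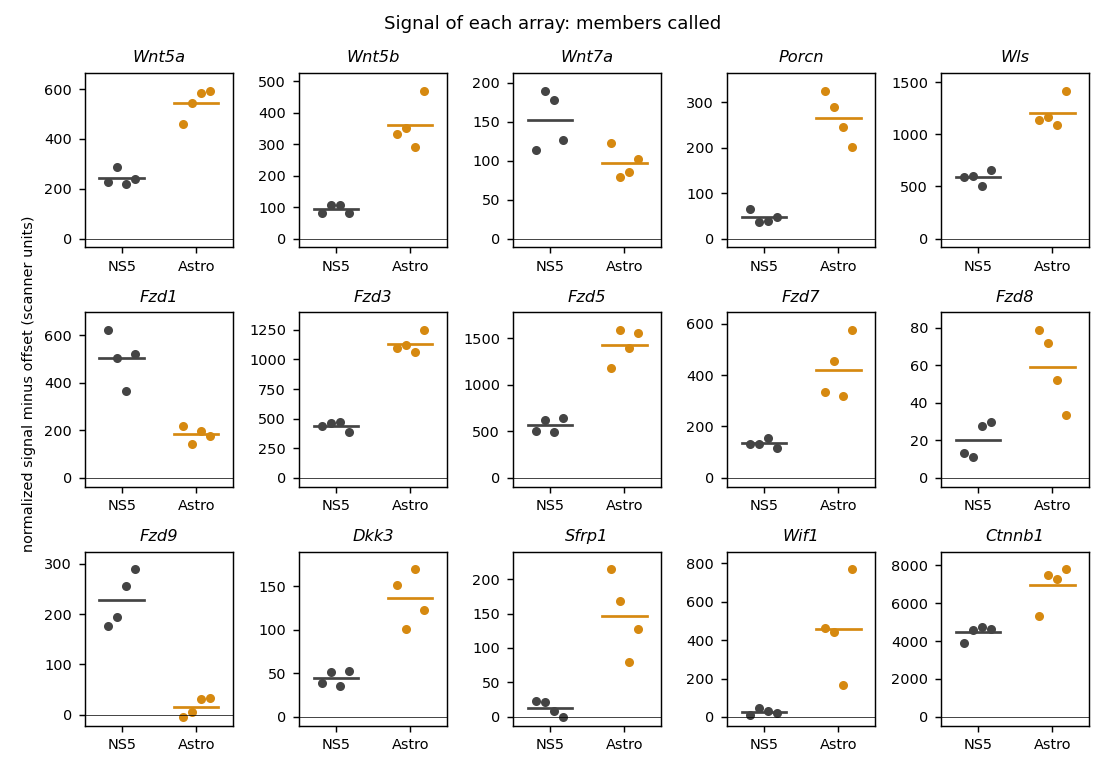
Normalized signal of each array in scanner units (vertical axes start near 0 and differ by gene) for the 15 called members, with 1 point per array and a line at the mean of 4. The groups separate in 14 of the 15 panels, the exception being Wnt7a.

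The Frizzled receptors did not move as a group, with calls in both directions. Of 8 receptors and coreceptors tested, Fzd3, Fzd5, Fzd7 and Fzd8 were called higher in astrocytes, Fzd1 and Fzd9 lower, and Fzd2 and Lrp6 were not called. That is 75.0% called, beside 59.2% of all tested genes. Fzd8 passed the filter through the astrocyte arrays alone and Fzd9 through the NS5 arrays alone, so the direction of each was fixed on entry. The count therefore supports nothing about the receptors as a class. The median log2 fold change of the 8 was 0.18, or 0.072 with Fzd8 and Fzd9 held at their bounds.

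Fzd3, a Frizzled known for its part in planar cell polarity and axon guidance, had signals of 433, 459.5, 470.0 and 384 on NS5 arrays and 1097, 1122, 1067 and 1248 on astrocyte arrays. The spread within each group was small beside the gap, and the log2 fold change was 1.20 ± 0.080 (SE, with adjusted p = 4.85e-08), the smallest adjusted p among the members. Fzd7 had 133, 133, 155 and 117 on NS5 and 336, 454, 319.9 and 576 on astrocyte arrays. No astrocyte array reached down to the NS5 arrays, though the astrocyte arrays ranged more widely, and the log2 fold change was 1.13 ± 0.13 (SE, with adjusted p = 1.03e-05). For Fzd5 the result depended on the probe. On the probe used the signals were 508, 618, 491 and 646 on NS5 and 1186, 1589, 1394 and 1557 on astrocyte arrays, without overlap, and the log2 fold change was 1.20 ± 0.11 (SE, with adjusted p = 7.65e-07). The other Fzd5 probe was above the limit on all 8 arrays, with means of 61.7 ± 9.98 in NS5 and 53.2 ± 5.32 in astrocytes (SD, n = 4), and was not called, at -0.077 (adjusted p = 0.413). With the mean of both probes the log2 fold change of Fzd5 was 0.56 and was still called.

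Fzd8 was dim, with 13.1, 10.8, 27.4 and 29.5 on NS5 arrays, none above the limit, and 78.6, 71.9, 51.9 and 33.3 on astrocyte arrays, of which 3 were above it. The astrocyte arrays were all above the NS5 arrays, and the mean was at least 1.14-fold higher (adjusted p = 0.00429).

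Fzd9 and Fzd1 showed the opposite pattern. Fzd9, a Frizzled whose human counterpart lies in the region deleted in Williams syndrome, had signals of 176, 195, 255 and 289 on NS5 arrays and -4.15, 6.43, 31.1 and 33.1 on astrocyte arrays. It was above the limit on all 4 NS5 arrays and on no astrocyte array, which makes it lower in astrocytes by at least 2.40-fold (adjusted p = 6.50e-07). Fzd1 stayed above the limit in both groups, with 621, 503, 365 and 521 on NS5 and 216, 143, 197 and 174 on astrocyte arrays. The highest astrocyte array was below the lowest NS5 array, and the log2 fold change was -1.08 ± 0.13 (SE, with adjusted p = 8.76e-06). The 250 bases before the Fzd9 start (RefSeq, GRCm38.p6, chr5:135251048-135251297, minus strand) are shown because Fzd9 had the largest fall of the tested members, and hold neither motif string:
Fzd9: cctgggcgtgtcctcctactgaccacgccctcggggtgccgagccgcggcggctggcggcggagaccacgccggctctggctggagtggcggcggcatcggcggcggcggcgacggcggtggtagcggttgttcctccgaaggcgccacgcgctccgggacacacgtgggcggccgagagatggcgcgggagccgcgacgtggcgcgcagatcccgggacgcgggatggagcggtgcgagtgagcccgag
This window has 76.4% G and C and 42 CpG pairs, while the median window of all genes has 52.4% and 6, and the median over the members' windows is 66.4% and 17.

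Fzd2 had 137, 165, 143 and 138 on NS5 and 159, 160.4, 110.1 and 126 on astrocyte arrays. The groups lay on top of each other, with a log2 fold change of -0.046 ± 0.088 (SE, with adjusted p = 0.693). Lrp6, the coreceptor needed for signalling through beta-catenin, ranged from 51.3 to 87.1 on NS5 and 45.1 to 69.4 on astrocyte arrays, with a log2 fold change of -0.13 ± 0.091 (SE, with adjusted p = 0.238). Fzd4, known as the receptor of Norrin in retinal vessels, was above the limit on 2 astrocyte arrays and no NS5 array, and Fzd6, a planar polarity Frizzled, on none.

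Secreted inhibitors were called higher in 3 of the 4 tested cases and lower in none, while 29.2% of all tested genes were called higher. Their median log2 fold change was 0.91, or 0.76 with Sfrp1 held at its bound. Sfrp1 and Wif1 passed the filter through the astrocyte arrays alone and so could enter the test only as higher genes. The count therefore supports nothing about the inhibitors as a class. Wif1, which binds Wnt proteins outside the cell, had the largest change of all tested members. Its signals were 11.6, 45.0, 30.7 and 20.9 on NS5 arrays, of which 1 was above the limit, and 463, 441, 164 and 769 on astrocyte arrays, all above it. The groups did not overlap, but the astrocyte arrays differed widely from each other, with Astrocyte replicate 3 lowest and replicate 4 highest. The log2 fold change was 2.03 ± 0.27 (SE, with adjusted p = 2.44e-05), and it ran from 1.78 to 2.35 when each array was left out in turn. With signals under 10 set to 10 it was 4.06, and for Dkk3 1.61. The 250 bases before the Wif1 start (RefSeq, GRCm38.p6, chr10:121033754-121034003, plus strand) are shown for this largest rise, and hold neither motif string:
Wif1: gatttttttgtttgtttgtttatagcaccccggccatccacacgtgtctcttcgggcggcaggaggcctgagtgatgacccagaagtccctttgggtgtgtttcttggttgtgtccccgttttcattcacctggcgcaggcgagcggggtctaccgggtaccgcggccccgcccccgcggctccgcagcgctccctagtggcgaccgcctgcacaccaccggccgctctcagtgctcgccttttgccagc

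Sfrp1, a secreted protein with a Frizzled-like domain that can hold Wnts, had signals of 22.5, 20.8, 8.78 and -0.250 on NS5 arrays, none above the limit, and 214, 168, 79.0 and 127 on astrocyte arrays, all above it. Here too Astrocyte replicate 3 was the lowest of its group, and the gene was at least 1.75-fold higher in astrocytes (adjusted p = 2.70e-05). Dkk3, a divergent member of the Dickkopf family, had 39.1, 51.5, 35.2 and 52.4 on NS5 arrays, with 2 above the limit, and 152, 101, 169.5 and 123 on astrocyte arrays. The groups did not overlap, and the log2 fold change was 0.71 ± 0.097 (SE, with adjusted p = 3.59e-05). A second Dkk3 probe was not above the limit on any array.

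Frzb, another Frizzled-like secreted protein, had 43.1, 39.9, 59.7 and 50.1 on NS5 and 44.0, 29.6, 36.9 and 29.7 on astrocyte arrays. It was near background with overlapping groups and was not called, at -0.13 ± 0.075 (SE, with adjusted p = 0.146), but with signals under 10 set to 10 it was called lower, at -0.46 (adjusted p = 0.0456). Dkk1, which blocks the Lrp5 and Lrp6 coreceptors, and Sfrp2 were not above the limit on any array. The summed signal of the 6 inhibitors ran from 119.8 to 186 on NS5 and 443 to 1035 on astrocyte arrays. Wif1 alone gave 463, 441, 164 and 769 on the astrocyte arrays, so the sum does not describe a rise shared by the 6. It also holds the signals of Dkk1 and Sfrp2 below the limit, those of Sfrp2 negative on every astrocyte array.

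Of the intracellular core, 1 of 5 tested genes was called, beside 59.2% of all tested genes, and the median log2 fold change was -0.12. Ctnnb1 encodes beta-catenin, which serves both in this pathway and in cadherin junctions. The probe used gave 3923, 4563, 4729.9 and 4648 on NS5 and 5335, 7504, 7259 and 7781 on astrocyte arrays. All astrocyte arrays were higher, with replicate 1 the lowest of them, and the log2 fold change was 0.62 ± 0.12 (SE, with adjusted p = 0.000479). The second Ctnnb1 probe pointed the other way, with means of 71.7 ± 17.5 in NS5 and 39.3 ± 20.2 in astrocytes (SD, n = 4), and was called lower, at -0.31 (adjusted p = 0.0337). With the mean of both probes Ctnnb1 was not called, at 0.15 (adjusted p = 0.241), so its direction rests on the choice of probe.

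The other core genes were not called. Gsk3b, the kinase that phosphorylates beta-catenin, had 516, 508, 521 and 494 on NS5 arrays and 432, 513, 499 and 511 on astrocyte arrays. Apart from the lower Astrocyte replicate 1 these 8 values were close together, with a log2 fold change of -0.052 ± 0.073 (SE, with adjusted p = 0.585). Apc, a scaffold of the destruction complex, ranged from 151 to 263 on NS5 and 111 to 236 on astrocyte arrays, with a log2 fold change of -0.21 ± 0.14 (SE, with adjusted p = 0.242). Dvl1, which passes the signal on from Frizzled, ranged from 929 to 1096 on NS5 and 833 to 1062 on astrocyte arrays, with -0.12 ± 0.085 (SE, with adjusted p = 0.257) on the log2 scale, and the dim Dvl3 gave -0.15 ± 0.10 (SE, with adjusted p = 0.256). Each of these 4 genes had overlapping groups and an estimate below 0. Dvl2 was not above the limit on any array.

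None of the 3 tested nuclear effectors was called with limma, and none had an unadjusted p under 0.05. Their groups overlapped. Tcf7l2, a TCF factor above the background limit on all 8 arrays, had 995, 1033, 1090.2 and 1254 on NS5 arrays and 1645, 1166, 1212 and 1222 on astrocyte arrays. Astrocyte replicate 1 stood above the rest of its group, which overlapped with NS5, and the log2 fold change was 0.23 ± 0.11 (SE, with adjusted p = 0.0862). Without NS5 replicate 4 it was called higher, at 0.30 (adjusted p = 0.0457), while without Astrocyte replicate 1 it was 0.13 (adjusted p = 0.237). Tcf7l1, known mainly as a repressor, was above the limit on 4 NS5 arrays and 1 astrocyte array, and its log2 fold change was -0.19 ± 0.12 (SE, with adjusted p = 0.200). Without Astrocyte replicate 3, whose signal was the highest of all 8, it was called lower, at -0.32 (adjusted p = 0.0157), while without Astrocyte replicate 4 it was -0.093 (adjusted p = 0.512). Tle1, a Groucho corepressor that binds TCF factors, ranged from 557 to 671 on NS5 and 594 to 931 on astrocyte arrays, with 0.19 ± 0.12 (SE, with adjusted p = 0.207) on the log2 scale, and 0.062 (adjusted p = 0.588) without Astrocyte replicate 1. Lef1 was above the limit on 3 NS5 arrays and no astrocyte array, with signals of 51.8, 38.4, 33.6 and 44.3 against 10.1, 15.9, 24.4 and 25.4. These did not overlap, but its mean lay below the filter. In a fit with no filter, Lef1 (-0.26, adjusted p = 0.0279) and the undetected Sfrp2 (-0.46, adjusted p = 0.00242) were called lower and the other 7 dim members were not called. Tcf7, whose probes were named through their accession, was above the limit on 2 astrocyte arrays and no NS5 array.

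Feedback and membrane regulators gave no limma call among 3 tested, and none at an unadjusted p under 0.05. Axin2, a scaffold of the destruction complex that is itself a widely used target gene of beta-catenin, had signals of 143, 211, 179.8 and 202 on NS5 arrays and 168, 268, 319 and 232 on astrocyte arrays. Astrocyte replicate 1 fell among the NS5 arrays while the other three lay above them all, and the log2 fold change was 0.28 ± 0.13 (SE, with adjusted p = 0.0863). Without Astrocyte replicate 1 it was called higher, at 0.39 (adjusted p = 0.00583), and with array weights it was called at 0.31 (adjusted p = 0.0227). Without Astrocyte replicate 3 it was 0.18 (adjusted p = 0.247), so the call of Axin2 turned on single arrays. The 250 bases before its start (RefSeq, GRCm38.p6, chr11:108920099-108920348, plus strand) are shown because Axin2 is a standard readout of signalling through beta-catenin, and hold neither motif string:
Axin2: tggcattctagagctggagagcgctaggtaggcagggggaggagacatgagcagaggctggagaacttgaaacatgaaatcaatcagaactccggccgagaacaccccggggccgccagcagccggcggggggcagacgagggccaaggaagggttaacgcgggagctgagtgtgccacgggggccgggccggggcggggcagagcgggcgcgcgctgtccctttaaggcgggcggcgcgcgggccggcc
Nkd2, which binds Dishevelled, ranged from 66.8 to 82.7 on NS5 and 56.3 to 83.3 on astrocyte arrays, with a log2 fold change of -0.042 ± 0.076 (SE, with adjusted p = 0.674). Kremen1, a membrane protein that works with Dkk1 to take Lrp6 off the surface, ranged from 87.7 to 118 on NS5 and 88.5 to 93.9 on astrocyte arrays, with -0.087 ± 0.071 (SE, with adjusted p = 0.330) on the log2 scale. Their groups overlapped.

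**Figure D4:**
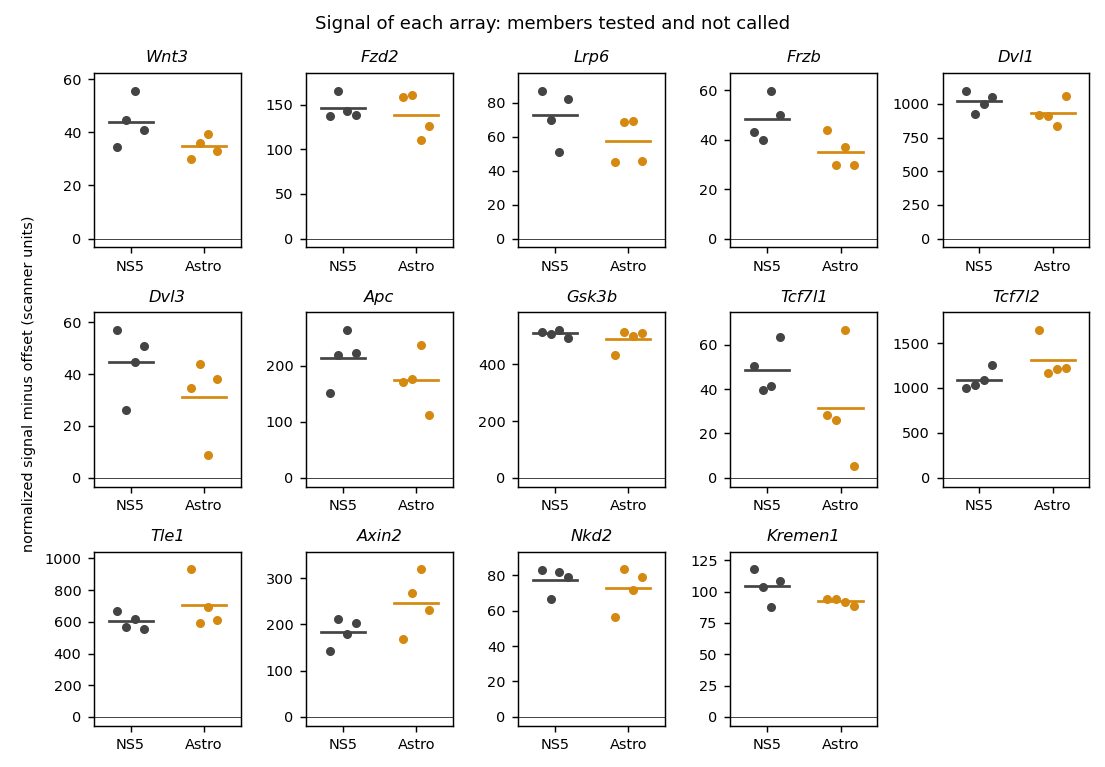
Normalized signal of each array in scanner units (vertical axes start near 0 and differ by gene) for the 14 tested members that were not called, with 1 point per array and a line at the mean of 4. The groups overlap in each of the 14 panels, and Astrocyte replicate 1 stands apart for Gsk3b and Tcf7l2.

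Within the groups, the tested members had a median SD of 0.12 in NS5 and 0.18 in astrocytes on the log2 scale, while all tested genes had 0.11 and 0.13.

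A further 91 genes of the pathway, outside the 42, give the surroundings. Of these, 85 had a named probe and 46 were tested, with 7 called higher and 20 called lower in astrocytes, 58.7% of those tested beside 59.2% of all genes. Lower calls made up 43.5% of them beside 30.0% of all genes, and their median log2 fold change was -0.11. Of 17 other ligands and agonists with a probe, 12 fell below the filter, and limma called none of the 5 tested. Ndp, the ligand Norrin, was the single one with an unadjusted p under 0.05, with a log2 estimate of 0.35 ± 0.15 (SE, with adjusted p = 0.0592) and overlapping groups.

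Other receptors and planar polarity proteins had 4 genes called higher and 4 lower among 13 tested, 61.5% called beside 59.2% of all tested genes. The 4 higher ones all belong to planar cell polarity, the alignment of cells within a sheet. Celsr2, a large cadherin of that system, had means of 324 ± 36.2 in NS5 and 2215 ± 185 in astrocytes (SD, n = 4), and it rose by 2.45 ± 0.087 (SE, with adjusted p = 1.66e-10) on the log2 scale. Its relative Celsr1 had 2.34 ± 0.10 (SE, with adjusted p = 1.15e-09), and the membrane protein Vangl2 had 1.53 ± 0.084 (SE, with adjusted p = 8.52e-09). Second probes of Celsr2 and Vangl2 were not above the limit on any array, so the change of each rests on 1 probe. Prickle1, which works with Vangl2, had 1.11 ± 0.13 (SE, with adjusted p = 7.30e-06). Vangl1, tested as well, was not called, at 0.097 (adjusted p = 0.337), and Celsr3 and Prickle2 were below the filter. Ror2, a receptor kinase for Wnt5a, fell where Wnt5a rose. Its signals were 284, 315, 287 and 304 on NS5 arrays and 66.4, 15.7, 12.9 and 32.1 on astrocyte arrays, of which 1 was above the limit. Its groups did not overlap, and the log2 fold change was -1.62 ± 0.11 (SE, with adjusted p = 7.45e-08), or -3.54 with signals under 10 set to 10. Ryk, Ptk7 and Tspan12 made up the other lower calls, with log2 fold changes from -0.56 to -0.36. Ror2, Ryk and Ptk7 are also known for parts in planar cell polarity, so genes with such a part were called in both directions.

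Nuclear cofactors were called lower in 7 of 10 tested cases, beside 30.0% of all tested genes, with a median log2 fold change of -0.68. None was called higher on the probe used. Ctbp2 was not called on that probe, at 0.32 (adjusted p = 0.201), but its second probe was called higher by limma, at 0.42 (adjusted p = 0.0182). Tle2, a Groucho corepressor, had -1.44 ± 0.098 (SE, with adjusted p = 5.55e-08), and Tle5, a short relative of that family, -1.01 ± 0.098 (SE, with adjusted p = 1.58e-06). Bcl9, which links beta-catenin to its Pygo partners, had -1.03 ± 0.11 (SE, with adjusted p = 2.58e-06). Ruvbl1, an ATPase of chromatin remodelling complexes, had -1.11 ± 0.10 (SE, with adjusted p = 7.76e-07), and its second probe gave -1.11 as well. Of 12 other intracellular components tested, 2 were called higher and 5 lower, none by as much as 2-fold. That is 58.3% called, beside 59.2% of all tested genes. Sostdc1 was the single tested gene of the other secreted inhibitors, with 8 below the filter, and was lower, with -1.06 ± 0.11 (SE, with adjusted p = 3.96e-06). With signals under 10 set to 10, Tle2 was at -2.35 and Sostdc1 at -1.86.

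Among 9 genes reported elsewhere as targets of beta-catenin, 5 were tested, 3 of them called lower and 1 higher. Ccnd1, the cyclin D1 that drives entry into the cell cycle, had signals of 21786, 28157, 25228 and 24071 on NS5 arrays and 1284, 681, 506 and 760.1 on astrocyte arrays. No pathway gene examined had a larger change, as it fell by 4.84 on the log2 scale (SE 0.20, adjusted p = 4.96e-10), and its other 3 probes gave -3.61 to -4.64. Myc, a growth-promoting transcription factor, was above the limit on all 4 NS5 arrays and on none of the astrocyte arrays, a fall of at least 2.23-fold (adjusted p = 1.73e-07). Both genes respond to many signals besides Wnt, and the markers of dividing cells fell on the same arrays, so the part of the pathway in their change was not tested. Jun was called higher, at 0.80 ± 0.20 (SE, with adjusted p = 0.00319), and Axin2, the target held among the 42, was not called.

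**Figure D5:**
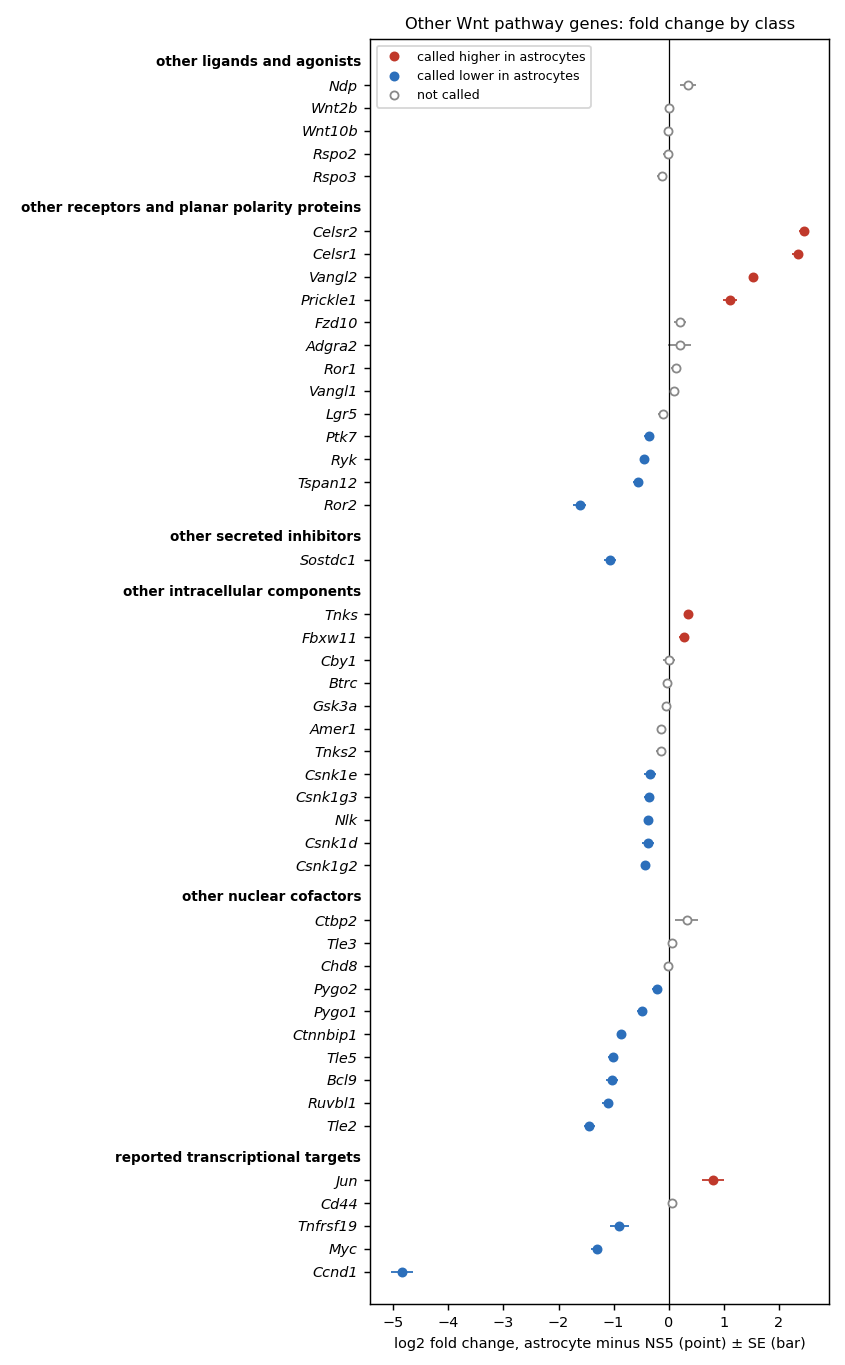
Log2 fold change (astrocyte minus NS5, horizontal axis) of the 46 tested genes of the wider pathway by class, with points for the estimate, bars for ± SE and colour for the call. Celsr2, Celsr1, Vangl2 and Prickle1 lie to the right, the nuclear cofactors mostly to the left, and Ccnd1 lies farthest left at -4.84.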

How the data were processed

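The authors deposited linear probe intensities of 8 arrays and a table of log2 values. The intensities have no detection p-value and include negative values, so a background had already been subtracted; its software and method were not given in the sources used here. The deposited log2 values equal the intensities floored at 10, log2 transformed and quantile normalized, within 4.99e-09. Per the labels' protocols, total RNA of 4 biological replicates per group was amplified and biotin-labelled; no slide or scan date is given, so such a batch could not be tested.

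Of 24613 probes, 20984 were named by the platform annotation and 687 through their accession. Intensities plus 99.01 (lowest value then 16) were log2 transformed and quantile normalized; limma's neqc would have been used had the table held a detection p. The 12306 probes whose mean exceeded the median over probes were kept, with the brightest probe per gene (10377 genes). limma 3.58.1 in R 4.3.3 (lmFit, eBayes, group alone) was run over all genes with Benjamini-Hochberg adjustment, calls at adjusted p under 0.05, and was tested on simulated data. The p-values measure the spread between cultures of 1 line. The background limit is 1.645 times the root mean square of an array's negative signals; a gene never above it in a group has only a bound there, the bright group's mean log2 value against the dim group's mean of, per array, the higher of the dimmest probe above the limit and the gene's own value. Signals are normalized values less the offset. The number of arrays limits the precision.

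The members, their roles and all lists were chosen with earlier results of these data known. Named outside the 42 are genes of the wider list called with at least a 2-fold change, at most 10 each way, and Gfap and Ccnb1. A few further genes (Ndp, Vangl1, Celsr3, Prickle2, Ryk, Ptk7, Tspan12, Ctbp2, Jun, Map2, Sox10, Mog, Nes, Olig2, Sox2, Prom1) and the printed promoters were chosen after their values were seen. Promoter windows are RefSeq's on GRCm38.p6, read on the gene's strand. The numbers in the sample titles were checked for pairing and treated as names. Alternatives were the normalization, offset, filter, probe choice, array weights, number as block, the authors' table and leaving out each array.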

Additional observations from a re-analysis of the deposited data

Results flagged for a closer look

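In 2 of 82 groups of 4 arrays examined (41 named genes in 2 cell types), 1 array lay far from the other three, with a gap above Dixon's critical value as a share of the group's range; chance flags about 1 in 20 groups. Gsk3b had its lowest signal on Astrocyte replicate 1, at 432 scanner units, with a gap of 0.835 of the range of the log2 values. Tcf7l2 had its highest signal on the same array, at 1645 scanner units, with a gap of 0.866. Neither gene was called.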

How the results depend on the processing

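Over 18 alternatives and 8 other probes, 729 of 745 recomputed values of the 41 named genes kept their direction and their side of the threshold. The number of members called higher stayed between 11 and 13. Members called lower, 3 in the report, numbered 3 to 4 under the other scalings, 5 with no filter on dim probes and 2 to 4 over arrays left out. The median log2 fold change of the members, 0.19 with an SD between arrays of 0.026, was 0.10 with median centring, 0.072 with probes above the limit on at least 4 arrays, 0.15 with the mean of all probes, 0.11 with array weights and turned to -0.036 with no filter, where 38 members enter; leaving out each array in turn gave 0.062 (without Astrocyte replicate 1) to 0.24. Calls among the core components fell to 0 with the mean of all probes. Calls among the nuclear effectors were 1 with no filter and 0 to 1 over arrays left out, and calls among the feedback regulators 1 with array weights, 1 with the replicate block and 0 to 1 over arrays left out. The estimate of Fzd2 changed sign without Astrocyte replicate 3 (range -0.090 to 0.014 over arrays left out), as did that of Nkd2 with array weights (0.011) and without Astrocyte replicate 1 (range -0.072 to 0.00474). The other probes, an alternative chosen after seeing the data, gave -0.077 for Fzd5 and -0.31 for Ctnnb1. The cause of these shifts was not tested, apart from the fewer or added genes and arrays that the filters and the arrays left out bring by construction.

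Deviations from the group means correlated weakly between arrays with the same number (r = -0.05, 0.05, 0.15 and 0.07). Not every array correlated best with its own number, though the 0.15 of number 3 was the highest of all pairs. Such weak correlations cannot decide whether the numbers pair the samples, and the numbers were treated as names. With the number as a block, Axin2 was called (0.28, adjusted p = 0.0322). Signals near the background limit give bounds or compressed fold changes, and 6 of the 38 measured members were above the limit on no array.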
